A study of Mus musculus with 11 samples.

Results

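The mitochondrially encoded genes are the 37 genes that the deposited count table places on the mitochondrial chromosome (MT), of 55486 genes in all. They comprise 13 protein genes, 2 rRNA genes and 22 tRNA genes, and were chosen by chromosome and annotated class, not by their values. The libraries were made with Smart-seq2, which reads polyadenylated RNA along its length, from eosinophils of the blood. The donors were FVB/N mice whose mammary tumours had given rise to metastatic disease. The treated group (n = 7 mice) received cisplatin, a DNA-crosslinking drug, with anti-PD1 and anti-CTLA4, antibodies against a pair of checkpoint receptors. The control group (n = 4 mice) received control antibody. Blood was taken at day 21 of treatment in both groups, and red cells were lysed before the sort. The sorting gate took live cells that were positive for CD45, CD11b and F4/80, negative for CD3, low for Ly6g and high in side scatter.

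The mitochondrial genome is a small circle that is transcribed from both strands into long precursors. These are cut at the tRNAs that lie between the other genes, and most of the mRNAs receive a short poly(A) tail. The proteins made from them are core subunits of complexes I, III and IV of the respiratory chain and of ATP synthase, complex V, while complex II is encoded wholly in the nucleus. Eosinophils are short-lived granulocytes whose mitochondria are known to take part in respiration and in the control of apoptosis.

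Library totals ran from 5356118 to 8016658 counts in the treated and from 3733156 to 6721060 counts in the control group. Eosinophil markers were present throughout, with a summed level of 2680 to 8843 counts per 1000000 (CPM) of the library total in treated and 3793 to 8461 CPM in control libraries, and 8 of 9 markers were detected in all 11 libraries. Control 3 and control 4 stood apart. Haemoglobin genes summed to 281600 CPM in control 3 and 201390 CPM in control 4. The sum was 10589 CPM in control 1, 1651 CPM in control 2 and 11595 to 44208 CPM in treated libraries. The 8 platelet markers summed to 298, 158, 6948 and 5963 CPM in control 1 to control 4 and to 728 to 2993 CPM in treated libraries. Other erythroid markers were ordered in the same way, at 860, 147, 18338 and 13714 CPM and 1375 to 5300 CPM. Monocyte and macrophage markers summed to 1690 to 14420 CPM in treated and 909 to 11181 CPM in control libraries, B cell markers to 1449 to 8878 and 529 to 3893 CPM, neutrophil markers to 5815 to 14047 and 6824 to 12842 CPM, and T and NK cell markers to 20.6 to 40.5 and 13.7 to 87.3 CPM. Basophil and mast cell markers summed to 8.03 to 450 and 3.31 to 12.3 CPM. No marker of any list was at 0 in all libraries.

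Counts were not spread over the whole mitochondrial genome. Of the 13 protein genes, 7 had 477 to 68710 counts in every library, and the other 6 had at most 17 counts in any library and 146 counts over all 11. The 6 are neighbours on the molecule. They are mt-Co2 (MT 7013 to 7696), mt-Atp8 (7766 to 7969), mt-Atp6 (7927 to 8607), mt-Co3 (8607 to 9390), mt-Nd3 (9459 to 9806) and mt-Nd4l (9877 to 10173), all on the plus strand in GRCm38. They encode subunits of complex IV (mt-Co2, mt-Co3), of ATP synthase (mt-Atp6, mt-Atp8) and of complex I (mt-Nd3, mt-Nd4l). mt-Co1, which precedes them at 5328 to 6872, and mt-Nd4, which follows them at 10167 to 11544, had 9674 to 27936 and 3048 to 9320 counts per library.

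This near-empty stretch coincided with a copy of mitochondrial DNA in the nuclear genome. On chromosome 1, between 24611535 and 24616197, the annotation lists 7 unprocessed pseudogenes on the minus strand, and their transcripts aligned to MT 6390 to 11042 with 2 substitutions in 4140 aligned bases. Gm28661 is the copy of mt-Co2, Gm10925 of mt-Atp6, Gm28437 of mt-Co3, Gm28438 of mt-Nd3, Gm10222 of mt-Nd4l, Gm28439 of the first 876 bases of mt-Nd4, and Gm29216 of the last 483 bases of mt-Co1. Gm28661, Gm10925, Gm28437, Gm10222 and Gm28439 were 100% identical to the mitochondrial gene over their aligned length. No annotated copy covers mt-Atp8 beyond the 43 bases it shares with mt-Atp6, but the gap between Gm28661 and Gm10925 is 233 bases on chromosome 1 and 233 bases on MT, so the missing part falls within the span. The sequence of that gap was not compared here.

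Both borders of the annotated copy are shown because the gene on each side keeps its counts. At the first border the alignment holds the other substitution, A1066T, just before the capitals, with the base of mt-Co1 first and the position counted from its 5′ end. Capitals mark the bases that the mitochondrial gene shares with the chromosome 1 copy without a break, and sequences are transcripts of GENCODE M21 on GRCm38, 5′ to 3′.
mt-Co1, bases 1041 to 1100: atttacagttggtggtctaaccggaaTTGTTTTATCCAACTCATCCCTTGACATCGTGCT
Gm29216, bases 1 to 47: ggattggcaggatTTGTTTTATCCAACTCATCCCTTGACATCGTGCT
mt-Nd4, bases 847 to 906: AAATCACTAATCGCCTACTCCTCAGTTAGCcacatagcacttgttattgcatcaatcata
Gm28439, bases 847 to 876: AAATCACTAATCGCCTACTCCTCAGTTAGC
The upstream part of mt-Co1 and the downstream part of mt-Nd4 lie outside the annotated copies on chromosome 1. Whether chromosome 1 matches MT beyond these annotated ends was not compared here.

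How much of each gene is its own was measured as the share of its 50-base stretches that are found in no other GENCODE M21 transcript on either strand. The share was 0% for mt-Co2, 0.136% for mt-Co3, 0.475% for mt-Atp6, 1.21% for mt-Nd4l and 2.01% for mt-Nd3. It was 37.8% for mt-Nd4, 48.9% for mt-Co1, 91.8% for mt-Nd2, 92.4% for mt-Nd5 and 100% for mt-Nd1, mt-Nd6 and mt-Cytb. The 12S rRNA gene mt-Rnr1 had 100% and the 16S rRNA gene mt-Rnr2 had 99.0%. mt-Atp8 also had 100%. Only transcripts were searched, so a match in sequence without an annotated transcript would not be counted. With stretches of 36 or 75 bases the same count of 5 protein genes stayed under 5%. The rule the authors applied to reads that map to more than 1 place is not given in the sources used here, and its part in the near-absence of these 6 genes was not tested.

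**Figure D1:**
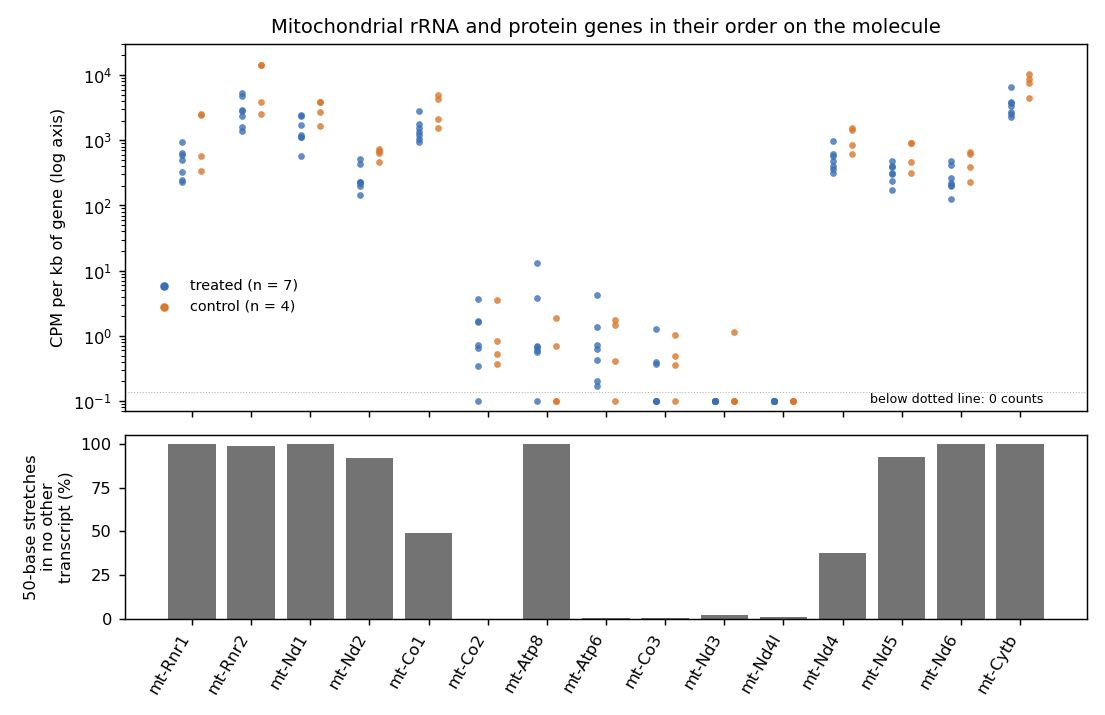
Level of each mitochondrial rRNA and protein gene in CPM per kb of gene (upper panel, log axis, 1 point per library, points below the dotted line at 0 counts) and the share of its 50-base stretches found in no other GENCODE transcript (lower panel, %), in the order of the genes on the molecule. The 6 genes from mt-Co2 to mt-Nd4l sit far below their neighbours in both groups, and 5 of them have a share of 2.01% or less.

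The copies themselves held few counts, except 1. Gm28438, the copy of mt-Nd3, had 66, 62, 40, 29, 14, 22 and 9 counts in treated 1 to treated 7 and 67, 67, 31 and 46 counts in control 1 to control 4, or 453 in all. mt-Nd3 had 1 count, in control 3. The other 6 chromosome 1 copies had 3 to 56 counts each over all libraries and 161 together. Gm28438 and mt-Nd3 differ within their 345 aligned bases by the substitution T3C, in which the base of mt-Nd3 comes first and the position is counted from its 5′ end. The base is in capitals.
mt-Nd3, bases 1 to 60: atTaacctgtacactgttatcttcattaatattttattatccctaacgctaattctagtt
Gm28438, bases 1 to 60: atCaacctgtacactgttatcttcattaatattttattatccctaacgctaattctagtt
Which of these bases the FVB/N mice carry in their mitochondrial DNA was not tested. Scaled by TMM, a factor that corrects for a few genes taking much of a library, Gm28438 stood at 1.23 to 9.76 CPM (median 3.67) in treated libraries and at 8.47, 9.45, 12.4 and 16.7 CPM in control 1 to control 4. Treated libraries were lower on average and overlapped with the controls, with a fitted difference of -1.26 ± 0.73 on the log2 scale (treated minus control, SE; adjusted p = 0.806, edgeR).

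Of the near-empty genes, mt-Atp8 and mt-Atp6 also share bases with each other, so their few counts cannot be assigned apart there. The last 43 bases of mt-Atp8, in capitals and beginning with the start codon of mt-Atp6, belong to both.
mt-Atp8, bases 145 to 204: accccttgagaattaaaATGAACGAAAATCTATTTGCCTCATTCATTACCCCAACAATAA
Of these 6 genes treated 6 had the highest count for each that was detected in the treated group, with 15 counts on mt-Co2, 16 on mt-Atp8, 17 on mt-Atp6 and 6 on mt-Co3. mt-Nd4l had 0 counts in all 11 libraries, which allows up to 0.0427 CPM over all of them (3 counts of the scaled total; counting error only). No fold change is given for any of the 6, and none passed the filter on low counts.

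The shares of counts that follow therefore rest on 7 protein genes and 2 rRNA genes. Mitochondrial genes took 1.86%, 2.80%, 1.79%, 1.33%, 1.46%, 1.19% and 0.812% of counts in treated 1 to treated 7, and 2.57%, 1.94%, 3.33% and 3.74% in control 1 to control 4. The widest 95% Wilson interval of any of these was 0.0376 percentage points, which covers counting error only. Controls were the higher group, at 2.90% ± 0.80 (SD, n = 4) against 1.60% ± 0.635 (SD, n = 7), and 6 of 7 treated libraries lay below the lowest control. Treated 2 was the exception, above control 1 and control 2. In sorted cells measured in bulk, a lower share of a transcript cannot be told apart from fewer cells of a type that carries it.

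**Figure D2:**
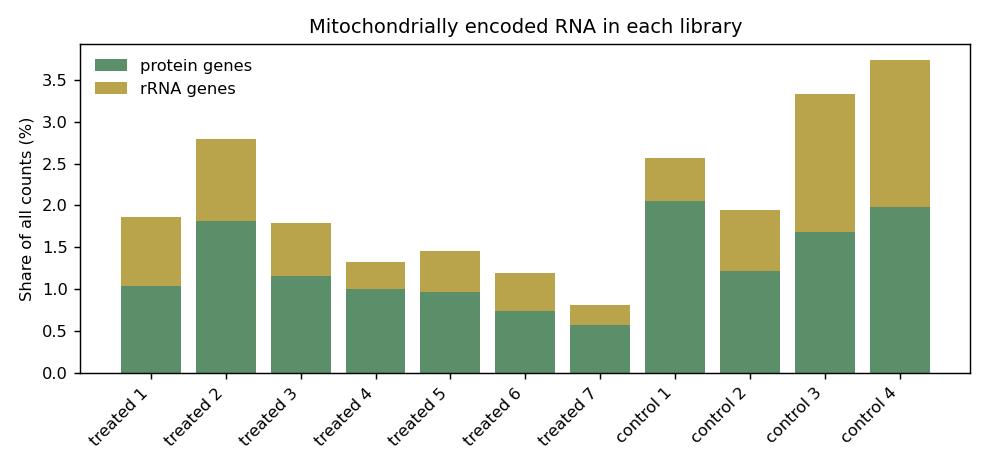
Share of all counts on mitochondrial protein genes and rRNA genes in each library (%, stacked bars from 0, 1 bar per library). Treated 2 reaches 2.80% and the other treated libraries 0.812% to 1.86%, while controls run from 1.94% to 3.74%, with the largest rRNA part in control 3 and control 4.

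Protein genes and rRNA genes did not divide the libraries in the same way. The share of the protein genes was 1.04% ± 0.393 in the treated group (SD, n = 7) and 1.73% ± 0.379 in the control group (SD, n = 4), with 2.05% in control 1, 1.22% in control 2, 1.68% in control 3 and 1.98% in control 4. The rRNA genes took 0.565% ± 0.267 and 1.16% ± 0.637, with 0.512% and 0.724% in control 1 and control 2 and 1.65% and 1.76% in control 3 and control 4. Control 3 and control 4, highest in rRNA, also held the most haemoglobin and platelet transcripts, whose part in it was not tested. The treated libraries reached 0.986%, above control 1 and control 2.

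The groups were compared for whether these transcripts differed between mice given cisplatin with anti-PD1 and anti-CTLA4 and mice given control antibody. All 12 mitochondrial genes that passed the filter on low counts had lower fitted values in treated libraries, but none was called. They were 7 protein genes, 2 rRNA genes and 3 tRNA genes, and the other 25 of the 37 did not pass, so these counts describe the tested genes only. Their median log2 fold change was -1.10, beside 0.03 over the 11389 genes tested, of which 48.2% had a fold change below 0. With edgeR's quasi-likelihood fit and p adjusted over all genes, 0 of the 12 passed 0.05 in either direction, beside 0% of all genes, and the adjusted p of the 12 ran from 0.626 to 0.930. At an unadjusted p of 0.05, 9 of the 12 were lower, beside 3.13% of all genes tested, and 0 were higher, beside 3.7%. DESeq2 gave 17 of the 37 an adjusted p and called 0 of these, beside 0.171% of all genes lower and 0.466% higher, and the smallest adjusted p among the 17 was 0.0931, for mt-Cytb. In none of the 37 did the groups separate without overlap, as 0.43% of tested genes did with lower and 0.509% with higher values in treated libraries.

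The size of the difference moved with control 3 and control 4. Without them the median of the 12 was -0.38, beside 0.10 over all genes tested, and 12 of 13 tested mitochondrial genes still had a fold change below 0, beside 44.9% of all genes. 1 of the 13, mt-Nd2, then had an unadjusted p under 0.05, and 0 were called by edgeR.

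Complex III has a single mitochondrial subunit, cytochrome b, encoded by mt-Cytb (MT 14145 to 15288, plus strand). Of the measured protein genes, mt-Cytb had the highest level per length, at 5111 CPM per kb over all libraries. It stood at 3877, 7502, 3103, 4284, 4468, 2567 and 2847 CPM in treated 1 to treated 7 and at 8683, 5120, 9994 and 11870 CPM in control 1 to control 4. Every treated library except treated 2 lay below the lowest control. The log2 fold change was -1.12 ± 0.30 (SE; adjusted p = 0.626, edgeR), and -0.72 without control 3 and control 4.

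Of the complex IV subunits, mt-Co1, the catalytic subunit, was the member whose counts can be read. Its level was 2744, 4396, 2092, 1836, 2377, 1614 and 1458 CPM in treated 1 to treated 7 and 3283, 2391, 6664 and 7609 CPM in control 1 to control 4. On the TMM scale control 1 and control 2 fell within the treated range, and control 3 and control 4 lay above it. The log2 fold change was -1.08 ± 0.35 (SE; adjusted p = 0.626, edgeR), and -0.23 without those libraries. Since 48.9% of the 50-base stretches of mt-Co1 are its own, and the rest recur in copies such as Gm29216 on chromosome 1 and Gm13340 on chromosome 2, its level per length depends on the denominator, with 2146 CPM per kb of the whole gene and 4535 CPM per 1000 stretches of its own.

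Complex I has the most mitochondrial subunits, of which mt-Nd1, mt-Nd2, mt-Nd4, mt-Nd5 and mt-Nd6 were measured. mt-Nd2 (MT 3914 to 4951) stood out among them by how little its fold change moved without control 3 and control 4. It was at 239, 540, 447, 230.0, 206, 237 and 152 CPM in treated 1 to treated 7 and at 700, 476, 657 and 771 CPM in control 1 to control 4. Again treated 2 alone reached the control range. Its log2 fold change was -1.15 ± 0.32 (SE; adjusted p = 0.626, edgeR) and -0.97 without control 3 and control 4 (adjusted p = 0.528, edgeR), the smallest move among the 9 protein and rRNA genes tested.

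mt-Nd1 (MT 2751 to 3707), which forms part of the proton-pumping arm as do the other mitochondrial subunits of complex I, ran from 558 to 2359 CPM in treated libraries (median 1172). In control 1 to control 4 it stood at 2566, 1595, 3728 and 3764 CPM, and 3 of 7 treated libraries reached the lowest control. Its log2 fold change was -1.01 ± 0.36 (SE; adjusted p = 0.626, edgeR), and -0.49 without control 3 and control 4.

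mt-Nd4, whose first part is copied on chromosome 1, ran from 428 to 1342 CPM (median 667) in treated libraries and was at 1178, 853, 1963 and 2165 CPM in control 1 to control 4. mt-Nd5 (MT 11742 to 13565) ran from 320 to 871 CPM (median 576) and was at 837, 570, 1638 and 1644 CPM. In both genes, on the TMM scale, control 3 and control 4 lay above all treated libraries, and control 1 and control 2 lay within their range. For mt-Nd4, 6 of 7 treated libraries lay below the lowest control, all but treated 2, and for mt-Nd5 3 of 7 did. The log2 fold changes were -1.07 ± 0.32 for mt-Nd4 and -0.96 ± 0.32 for mt-Nd5 (SE; adjusted p = 0.626 for both, edgeR), and -0.44 and -0.20 without control 3 and control 4.

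mt-Nd6 (MT 13552 to 14070) is the protein gene on the minus strand, and had the lowest level per length of the 7, at 346 CPM per kb against 443 CPM per kb for its neighbour mt-Nd5. The strand setting of the counts is not given, so reads of the opposite strand cannot be told from its own. It ran from 65.2 to 250 CPM (median 115) in treated libraries and was at 199, 120, 338 and 321 CPM in control 1 to control 4. Of the measured protein genes it had the smallest difference, at a log2 value of -0.78 ± 0.36 (SE; adjusted p = 0.727, edgeR), and -0.13 without control 3 and control 4.

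**Figure D3:**
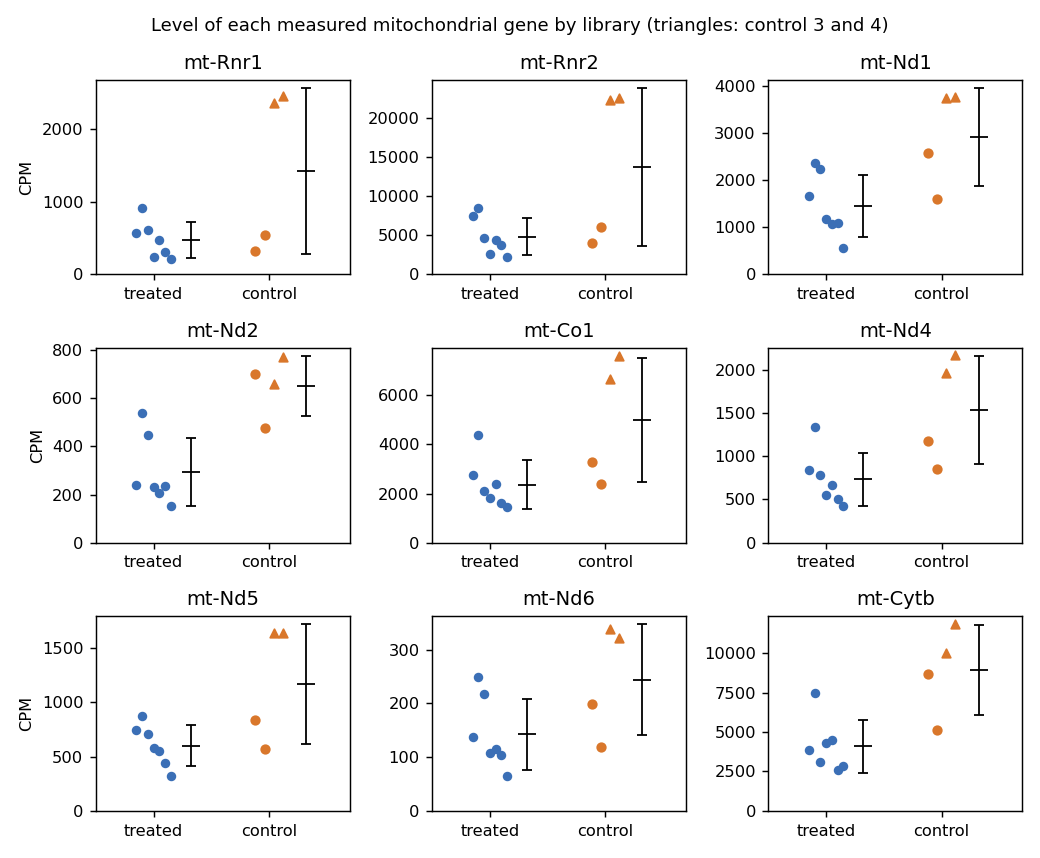
Level in CPM of the 9 measured rRNA and protein genes, with 7 treated and 4 control libraries as points, control 3 and control 4 as triangles, and bars for the mean ± SD of each group. In all panels but that of mt-Nd2 the triangles lie above all other libraries. In the panels of mt-Nd2, mt-Nd4 and mt-Cytb all treated libraries but treated 2 lie below the 4 controls.

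The rRNAs of the mitochondrial ribosome had the largest fold changes of the members tested and the least even controls. mt-Rnr2, the 16S rRNA gene (MT 1094 to 2675), stood at 7508, 8491, 4673, 2558, 4413, 3749 and 2235 CPM in treated 1 to treated 7 and at 4029, 6062, 22304 and 22582 CPM in control 1 to control 4. mt-Rnr1, the 12S rRNA gene (MT 70 to 1024), ran from 216 to 907 CPM (median 473) in treated libraries and was at 321, 541, 2349 and 2450 CPM in the controls. Control 1 and control 2 lay within the treated range for both genes. The log2 fold changes of -1.52 ± 0.47 for mt-Rnr2 and -1.58 ± 0.52 for mt-Rnr1 (SE; adjusted p = 0.626 for both, edgeR) went to -0.03 and 0.18 without control 3 and control 4, so that of mt-Rnr1 turned its direction.

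Although the ribosome holds 12S and 16S rRNA in equal number, their counts were unequal in every library. mt-Rnr2 had 7.73 to 13.2 times the counts of mt-Rnr1, and over all libraries stood at 5092 against 855 CPM per kb. The longest run of A in the gene, a place where a poly(T) primer can anneal, was 7 bases in mt-Rnr2 and 5 in mt-Rnr1. Among the measured protein genes it was 8 bases in mt-Nd2 (408 CPM per kb) and 7 in mt-Co1 (2146), mt-Nd4 (744) and mt-Nd5 (443). It was 6 in mt-Nd1 (2068), 5 in mt-Cytb (5111) and 3 in mt-Nd6 (346). The part of such runs in the counts was not tested. The ratio of mt-Rnr2 to mt-Rnr1 overlapped between the groups, with means of 10.4 ± 1.81 (SD, n = 7) and 10.6 ± 1.57 (SD, n = 4).

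Within the mitochondrial counts, the balance between rRNA and mRNA differed more among controls than between the groups. rRNA took 44.1%, 35.2%, 35.5%, 24.2%, 34.1%, 38.2% and 29.6% of mitochondrial counts in treated 1 to treated 7, and 19.9%, 37.2%, 49.6% and 47.1% in control 1 to control 4. Control 1 held the lowest and control 3 the highest share of all 11 libraries. The ratio of mt-Rnr2 to mt-Cytb counts accordingly ran from 0.464 in control 1 to 2.23 in control 3, and from 0.597 to 1.94 in treated libraries.

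Among the protein genes, the proportions differed between the groups by less than the spread of the treated libraries. mt-Cytb made up 42.6% ± 6.33 of mitochondrial protein counts in the treated group (SD, n = 7) and 44.5% ± 4.31 in the control group (SD, n = 4), and mt-Co1 24.3% ± 2.08 and 23.5% ± 4.02. mt-Nd1 took 14.8% ± 4.47 and 14.3% ± 0.686, and mt-Nd4 7.51% ± 0.696 and 7.49% ± 0.501. mt-Nd5 took 6.32% ± 0.891 and 5.58% ± 0.784, mt-Nd2 3.02% ± 0.872 and 3.41% ± 0.849, and mt-Nd6 1.46% ± 0.391 and 1.18% ± 0.121. Each of these 7 differences was smaller than 1 SD of the treated group.

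**Figure D4:**
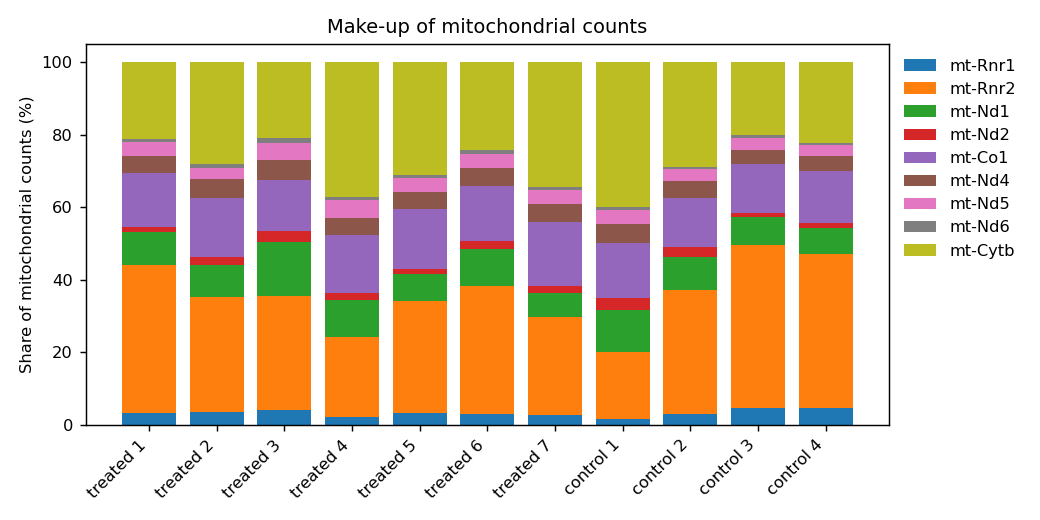
Share of mitochondrial counts on each of the 9 measured genes by library (%, stacked bars). The rRNA part runs from 19.9% in control 1 to 49.6% in control 3, with treated libraries from 24.2% to 44.1%.

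The 22 tRNA genes, 59 to 75 bases long, had 633 counts in all, and 7 of them had none. Mature tRNAs carry no poly(A) tail. The 5 with the highest mean level were mt-Tp, for proline (2.72 CPM), mt-Tq, for glutamine (1.37 CPM), mt-Tm, for methionine (1.36 CPM), mt-Tc, for cysteine (1.31 CPM), and mt-Te, for glutamic acid (0.865 CPM). The 8 tRNA genes on the minus strand held 470 counts, 172 of them on mt-Tp, and the 14 on the plus strand 163. Reads of the opposite strand cannot be told from those of the gene here either. Of the 5 tRNA genes within the span of the chromosome 1 copy, mt-Ts1 had 4 counts and mt-Tr 1, and mt-Td, mt-Tk and mt-Tg had 0.

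mt-Tp and mt-Tc are shown as the tested tRNA genes of the minus strand, in whole.
mt-Tp: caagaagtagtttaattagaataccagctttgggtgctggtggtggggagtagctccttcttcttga
mt-Tc: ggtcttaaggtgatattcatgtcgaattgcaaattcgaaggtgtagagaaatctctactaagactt
mt-Tp ran from 9 to 24 counts per library, at 1.30 to 2.99 CPM in treated and 2.54 to 5.59 CPM in control libraries, and its log2 fold change was -0.80 ± 0.85 (SE; adjusted p = 0.930, edgeR). mt-Tc had 0 counts in treated 5 and at most 22 elsewhere, with -1.29 ± 1.06 (SE; adjusted p = 0.901, edgeR), and mt-Tm had -1.45 ± 1.05 (SE; adjusted p = 0.866, edgeR). At these counts the SE is about as large as the difference, so no difference was detectable.

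The library protocol selects on the poly(A) tail, so the 3′ ends of the annotated genes are shown for the measured protein genes. Where the mRNAs themselves end was not examined. In mt-Cytb and mt-Nd4 the annotated gene stops after the first base of the stop codon, which the poly(A) tail completes, while mt-Co1, mt-Nd1, mt-Nd2, mt-Nd5 and mt-Nd6 carry a whole stop codon. The last 24 bases are shown, with the encoded part of the stop codon in capitals.
mt-Cytb: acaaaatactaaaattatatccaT
mt-Nd4: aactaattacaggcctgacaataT
mt-Co1: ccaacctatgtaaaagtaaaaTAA
mt-Nd1: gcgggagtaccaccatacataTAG
mt-Nd2: ctagccccccaactaattaccTAG
mt-Nd5: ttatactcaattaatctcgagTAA
mt-Nd6: attatcgagattactcgagatTAA
Of the genes with an incomplete stop codon, mt-Cytb stood at 5111 CPM per kb and mt-Nd4 at 744 CPM per kb of the whole gene or 2042 CPM per 1000 stretches of its own. Those with a whole stop codon stood at 2146 (mt-Co1), 2068 (mt-Nd1), 443 (mt-Nd5), 408 (mt-Nd2) and 346 (mt-Nd6) CPM per kb.

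Of 74 tested nuclear subunits of complexes I to V, 66 had a fold change below 0, beside 48.2% of all genes tested, with a median of -0.38, and 0 were called by edgeR. At an unadjusted p of 0.05, 17 were lower, beside 3.13% of all genes. 4 had treated values below all controls, beside 0.43% of genes tested, and 1 had values above all controls, beside 0.509%. Without control 3 and control 4 the nuclear median was -0.39 and 63 of 74 were below 0, beside 44.9% of all genes, while the median of the 12 mitochondrial genes went from -1.10 to -0.38. With the tRNA genes left out, the median of the 9 tested mitochondrial protein and rRNA genes went from -1.08 to -0.23. The medians of the nuclear subunits and of the mitochondrial genes thus lay far apart with all libraries and nearer to each other without control 3 and control 4. The median was -0.34 for complex I (33 of 36 below 0), -0.46 for complex III (8 of 9), -0.55 for complex IV (10 of 11) and -0.40 for complex V (12 of 14), and -0.01 for complex II (3 of 4; -0.25 without control 3 and control 4), which has no mitochondrial subunit.

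The nuclear subunits with the highest mean CPM in each complex had log2 fold changes between -0.55 and 0.14. Ndufa13 of complex I stood at 140 ± 35.9 CPM in the treated group (SD, n = 7) and 158 ± 28.2 CPM in the control group (SD, n = 4) and Ndufb7 at 135 ± 35.1 and 164 ± 21.8 CPM. In complex II, Sdhb stood at 339 ± 76.6 and 340 ± 60.4 CPM and Sdhd at 248 ± 25.4 and 250 ± 97.9 CPM, and Sdha and Sdhc had log2 fold changes of 0.37 and -0.31. In complex III, Uqcrc1 stood at 451 ± 98.1 and 409 ± 111 CPM and Uqcrc2 at 106 ± 15.9 and 126 ± 33.5 CPM. In complex IV, Cox4i1 stood at 228 ± 59.4 and 315 ± 69.9 CPM and Cox6b1 at 207 ± 39.5 and 304 ± 72.8 CPM. In ATP synthase, Atp5b stood at 530 ± 87.6 and 597 ± 122 CPM and Atp5a1 at 309 ± 31.2 and 303 ± 52.7 CPM.

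The genes with the smallest p in complexes I, IV and V included 3 of those 4. Atp5e, the epsilon subunit of ATP synthase, ran from 36.7 to 70.9 CPM (median 51.3) in treated libraries and was at 73.0, 154, 120 and 98.1 CPM in control 1 to control 4. The groups did not overlap, and the log2 fold change was -1.11 ± 0.27 (SE; adjusted p = 0.626, edgeR; adjusted p = 0.0345, DESeq2). Ndufa7 of complex I ran from 47.4 to 87.4 CPM and was at 110, 169, 111 and 116 CPM in the controls, with -0.90 ± 0.23 (adjusted p = 0.626, edgeR; adjusted p = 0.0131, DESeq2). Cox7b of complex IV ran from 30.5 to 57.47 CPM, just under its lowest control of 57.50 CPM, with -0.95 ± 0.27 (adjusted p = 0.626, edgeR). Outside the rule for named genes, and chosen after their values were seen, Ndufb4 of complex I was the other gene below all controls (-0.84, adjusted p = 0.693, edgeR), and Ndufab1, an acyl carrier protein that is also a complex I subunit, was the gene above them (0.75, adjusted p = 0.698, edgeR). In Ndufb9, Cox7a2, Uqcr10, Uqcrh and Atp5j2 the log2 fold changes were -0.81, -0.75, -0.75, -0.71 and -0.85, with groups that overlapped.

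**Figure D5:**
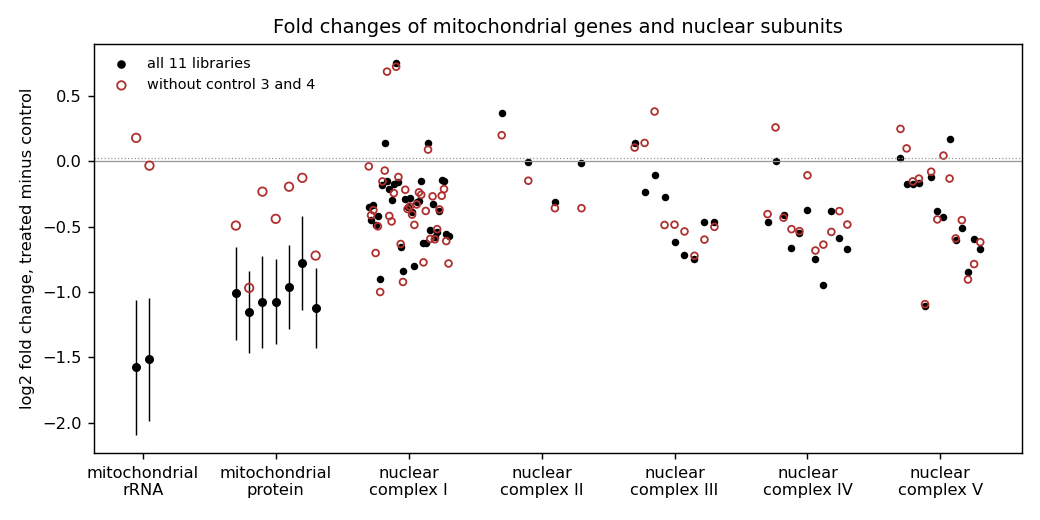
log2 fold changes (treated minus control) of the measured mitochondrial rRNA and protein genes (black points with SE) and of tested nuclear subunits by complex (black points), with open points for the values without control 3 and control 4. The rRNA genes move from -1.58 and -1.52 to 0.18 and -0.03, while the median of all nuclear subunits is -0.38 with all libraries and -0.39 without those 2.

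No gene of the lists for copying, transcribing and processing mitochondrial genomes and their RNA was called by edgeR. Of 20 tested genes for mitochondrial DNA upkeep and transcription, 11 had a fold change below 0 (median -0.24), and of 35 tested for RNA processing and translation 19 did (median -0.02). Over all genes tested 48.2% were below 0. Without control 3 and control 4 the counts were 15 of 20 (median -0.28) and 20 of 35 (median -0.06), beside 44.9% of all genes. With Prorp set aside for the reason given below, no gene of either list had an unadjusted p under 0.05 in edgeR. Of all genes tested, 3.13% were lower and 3.7% higher at that p. Nrf1, a transcription factor for nuclear respiratory genes, stood at 63.9 ± 10.5 CPM in the treated group (SD, n = 7) and 84.5 ± 27.1 CPM in the control group (SD, n = 4), and Polg, the mitochondrial DNA polymerase, at 49.1 ± 21.8 and 30.0 ± 32.8 CPM. The controls of Polg were 52.2, 64.0, 3.19 and 0.724 CPM, and its log2 fold change went from 0.69 to -0.21 without control 3 and control 4. Tfb1m, a methyltransferase of 12S rRNA, stood at 2.65 ± 1.60 and 8.40 ± 5.30 CPM. Hsd17b10 and Prorp are both part of the enzyme that cuts the 5′ ends of mitochondrial tRNAs. Hsd17b10 stood at 86.8 ± 31.7 and 112 ± 20.8 CPM. Prorp had 0 counts in all controls and 5.95 ± 8.57 CPM in treated libraries (lowest 0, median 4.55, highest 24.4), detected in 6 of 7. It passed the filter on low counts through the treated group alone, and 1 treated library holds much of its mean, so no fold change or test is given. Trnt1, which adds the CCA end to tRNAs, stood at 74.1 ± 23.9 and 77.7 ± 50.2 CPM, and Rcc1l, a factor of the 16S rRNA, at 4.73 ± 5.30 and 0.348 ± 0.695 CPM.

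In the table's header the identifiers of treated libraries start with 19 and those of controls with 20, so a batch marked by these digits and the treatment cannot be told apart. The letters that follow are KDV in treated 1 and all controls and VIS in the other treated libraries. Within KDV, treated 1 lay below all 4 controls for mt-Cytb (3877 against 5120 CPM or more), mt-Nd2 (239 against 476) and mt-Nd4 (837 against 853). It lay within the control range for mt-Rnr1 (570 CPM), mt-Rnr2 (7508), mt-Nd1 (1653), mt-Co1 (2744), mt-Nd5 (745) and mt-Nd6 (138). VIS holds treated libraries only.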

How the data were processed

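The values are raw counts per gene that the authors deposited for 11 libraries, 1 per mouse by the series' design. The submitters' processing notes name bcl2fastq 2.20.0.422, HISAT2 2.10, SAMtools 1.15.1 and GRCm38. For the counter, its strand setting, its treatment of reads with several locations and its annotation, nothing is stated in the sources used here. The 1 row naming no gene held 0 counts. Groups came from the treatment label.

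edgeR 4.0.16 in R 4.3.3 was fitted to all genes (quasi-likelihood, TMM, filterByExpr, robust dispersions), and p was adjusted by Benjamini-Hochberg over 11389 genes at 0.05. CPM of single genes are scaled by TMM, while shares and marker sums use library totals. The TMM factor was 0.671 in control 3 and 0.704 in control 4, which raises their CPM, and 0.981 to 1.20 in the other libraries. DESeq2 1.42.0 and limma 3.58.1 served as alternatives. Sequences are GENCODE M21 transcripts, aligned with BLAST 2.17.0. Named genes were all members and, of each nuclear list, the 2 of highest mean CPM and the 2 of smallest p. The members and lists were chosen with earlier results of these data known. The fit was tested on simulated data: of 50 genes shifted by a log2 value of 1 it called 1, and of those shifted by 2, 3 and 4 it called 32, 41 and 47. Counts of no 2 libraries agreed within sampling noise.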

Additional observations from a re-analysis of the deposited data

Results flagged for a closer look

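Each flag marks a library whose gap to the nearest other library of its group is large against the group's range. Of 76 such groups examined 6 were marked, and chance marks about 1 in 20. In treated 2 mt-Cytb stood at 7502 CPM, with the next treated library at 4468 CPM. In control 1 the tRNA genes took 0.00199% of counts, with the next control at 0.00107%. Treated 3 had the highest share of mitochondrial counts on mt-Nd1 (15.0%, next 10.3%) and on mt-Nd6 (1.46%, next 0.984%). Its share of mitochondrial protein counts on mt-Nd6 was 2.27%, with the next at 1.59%. Control 1 had the lowest share of mitochondrial protein counts on mt-Nd4, at 6.75%, with the next control at 7.67%.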

How the results depend on the processing

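Over 22 alternatives of the fit, 259 of 260 fold changes of tested mitochondrial genes kept their direction and stayed uncalled. The exception was mt-Rnr1 without control 3 and control 4 (0.18), a setting chosen after seeing the data. A covariate for the identifier letters, also among the 22, was chosen then too. Since VIS holds treated libraries only, its group difference rests on treated 1 alone against the 4 controls. With this covariate mt-Rnr2 was at -0.87, mt-Tp at -0.34, mt-Tm at -2.57 and mt-Tc at -2.06. The other tested mitochondrial genes lay between -1.45 and -0.65. The median over the genes of all nuclear lists went from -0.31 to -0.74 with the same covariate. DESeq2 called 82 genes in all (60 higher, 22 lower), or 0.466% higher and 0.171% lower of 12866 genes, and 0 of 17 mitochondrial genes. Among the 130 genes of the nuclear lists with an adjusted p, it called Ndufa7 and Atp5e lower. Prorp was set aside there because it had 0 counts in all controls. All other alternatives, each library left out included, gave 0 calls. Scaling by library total alone moved the median of all genes to 0.25, mt-Cytb to -0.82, mt-Co1 to -0.69, mt-Nd4 to -0.72 and mt-Rnr2 to -1.04. Same-numbered libraries did not deviate together (correlations -0.116 to 0.021), so the numbers do not pair them. With the replicate number as a block mt-Cytb was at -0.97, mt-Rnr1 at -0.89, mt-Nd1 at -0.63, mt-Nd5 at -0.58 and mt-Nd6 at -0.43, and 0 genes were called. Without control 3 mt-Tp was at -0.52, and mt-Rnr1 ran from -1.91 to -1.15 over the libraries left out. The mitochondrial share differed by -1.29 percentage points (treated minus control), by -1.82 with haemoglobin counts removed and by -0.65 without control 3 and control 4. With 7 and 4 libraries, differences of about 1 on the log2 scale were seldom called in the test on simulated data. The shifted genes there were drawn at random from tested genes above the median level, and the rate for the mitochondrial genes themselves was not tested.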
